A study of Homo sapiens with 16 samples.

Results

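The genes described here are 41 members of the integrated stress response and the unfolded protein response, chosen by symbol from a list and followed through 4 comparisons of U2OS cells. All 41 were present in each of the 4 tables that the authors deposited, out of 19344 genes shared by the tables and 23396 found in any of them. U2OS is a human osteosarcoma line that keeps wild-type p53. All groups were this one line, transfected either with a control siRNA (siControl) or with a siRNA against the transcription factor RFX7 (siRFX7), and exposed over 24 h to DMSO or to 10 µM Nutlin-3a, which keeps MDM2 from binding p53 and so stabilises p53. The 4 groups were siControl with DMSO, siControl with Nutlin-3a, siRFX7 with DMSO and siRFX7 with Nutlin-3a, each with 4 libraries of poly(A) RNA (16 in all). The series asks which transcripts RFX7 regulates in U2OS.

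The integrated stress response starts from kinases that phosphorylate the alpha subunit of the initiation factor eIF2, among them EIF2AK3 (PERK, which senses unfolded protein in the endoplasmic reticulum, ER) and EIF2AK4 (GCN2, which senses uncharged tRNA when amino acids are short). Bulk translation then falls, while the mRNA of the transcription factor ATF4 is translated more, and ATF4 with partners such as CEBPG and DDIT3 (CHOP) drives genes of amino acid synthesis, transport and tRNA charging. The unfolded protein response joins PERK with ERN1 (IRE1), which splices XBP1 mRNA, and with ATF6, which is cleaved in the Golgi; together they raise ER chaperones and the machinery of ER-associated degradation. Gene-level RNA, the quantity measured here, does not read eIF2 phosphorylation, ATF4 translation, XBP1 splicing or ATF6 cleavage.

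The tables hold comparisons of 2 groups of 4 libraries and no value of a single library, so spreads between libraries enter only through the authors' standard errors (SE), and whether single libraries of different groups overlap was not analysed here. Group levels were derived from the authors' base means and fold changes, as mean normalised counts over 4 libraries, put on 1 scale. For the 41 genes, levels derived from different tables differed by at most 0.358%. The labels do not say whether the libraries of a group came from separate cultures, so the p-values measure the spread between these libraries, which may be technical. The summed base means ran from 27946376 to 35311111 normalised counts. RFX7 RNA was at 18.6% of the siControl level under DMSO and at 19.4% under Nutlin-3a per the authors' deposited tables, and the p53 targets CDKN1A and MDM2 rose with Nutlin-3a by 2.76 to 3.24 on the log2 scale. Of 9 osteoblast and mesenchymal marker genes, 6 were in all 4 tables, from COL1A1 with base means of 37048 to 39039 down to COL1A2 with 11.0 to 13.2 per the authors' deposited tables; the late osteoblast genes SP7 and IBSP were in none and BGLAP had a base mean of at most 4.25. Of 8 markers of other cell types, EPCAM (at most 214), CDH1 (at most 183) and VWF (at most 17.8) were in all 4 of the authors' deposited tables, PTPRC and PECAM1 in 1 each at no more than 5.21, and KRT5, CD3E and ALB in none.

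The lowest base mean of the 41 genes in any comparison was 130, that of ASNS for siRFX7 over siControl under DMSO. Limits on the values of ASNS, DDIT3 and CEBPB are given below. Per kilobase of exonic length in GENCODE 29, the ER chaperones led in siControl cells under DMSO. CALR (calreticulin, a calcium-binding chaperone of glycoproteins) stood at 17201 normalised counts per kilobase, HSPA5 (BiP, the main Hsp70 of the ER) at 7082 and HSP90B1 (GRP94) at 4965. SLC7A5, a transporter of large neutral amino acids, lay between the chaperones HSPA5 and HSP90B1, and ATF4 followed at 4120. The lower end held ERN1 at 66.0, the mitochondrial folate enzyme ALDH1L2 at 63.3, the lipoprotein receptor VLDLR at 51.9 and ASNS (asparagine synthetase) at 25.8 normalised counts per kilobase.

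These pathways are known to act through short DNA elements in promoters, and the matches that a search found in some of the members are shown because the genes that hold them are followed below. Promoter windows ran from 250 bases before to 50 bases after a start site, taken from RefSeq (GRCh38.p14), and 37 of the 41 genes had at least 1 window; PSPH, SHMT2, ALDH1L2 and SLC7A11 had none. The ER stress response element, the site of ATF6, was searched on both strands as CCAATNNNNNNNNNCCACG. It was found in 6 of the 37 genes (16.2%) and in 0.0916% of all 27305 genes with a window. The elements follow along the strand of the motif, with the fixed bases in capitals. HSP90B1 had 2 of them, on opposite strands.
XBP1: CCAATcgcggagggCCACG
HSPA5: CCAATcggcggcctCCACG
HSP90B1, upstream: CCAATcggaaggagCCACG
HSP90B1, downstream: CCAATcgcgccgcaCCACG
PDIA6: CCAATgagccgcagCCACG
CALR: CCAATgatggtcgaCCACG
CRELD2: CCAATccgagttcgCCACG

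The core of the C/EBP-ATF element, the composite site bound by ATF4 with a C/EBP partner, was searched on both strands as TGATGNAA. It was found in 7 of the 37 genes (18.9%) and in 4.46% of all genes with a window. The 7 matches read as follows along the strand of the motif, all capitals being the searched core.
ASNS: TGATGAAA
CHAC1: TGATGCAA
SLC3A2: TGATGTAA
CEBPG: TGATGCAA
HERPUD1: TGATGCAA
AARS: TGATGCAA
GARS: TGATGAAA

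The core of the unfolded protein response element, TGACGTGG, was in no member's window and in 0.927% of all genes, and the RFX X-box was in no member's window and in 0.901% of all genes. A match is a description of letters and not a measured binding site, and the absence of a match says only that these letters are not in this window. Because the members were picked as genes of these pathways, a share of matches above that of all genes is no independent result. Because they belong to the genes whose levels moved most or anchor the pathways, 4 windows are shown whole, 5′ to 3′ along the gene, with any match to these motifs in capitals.
HSPA5, chr9:125241294-125241593, minus strand: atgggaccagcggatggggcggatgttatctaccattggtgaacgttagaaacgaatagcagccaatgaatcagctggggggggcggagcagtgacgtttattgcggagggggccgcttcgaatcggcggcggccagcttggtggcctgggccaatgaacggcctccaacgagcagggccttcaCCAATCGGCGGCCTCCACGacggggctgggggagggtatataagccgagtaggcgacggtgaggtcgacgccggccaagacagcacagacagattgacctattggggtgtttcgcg
CHAC1, chr15:40953221-40953520, plus strand: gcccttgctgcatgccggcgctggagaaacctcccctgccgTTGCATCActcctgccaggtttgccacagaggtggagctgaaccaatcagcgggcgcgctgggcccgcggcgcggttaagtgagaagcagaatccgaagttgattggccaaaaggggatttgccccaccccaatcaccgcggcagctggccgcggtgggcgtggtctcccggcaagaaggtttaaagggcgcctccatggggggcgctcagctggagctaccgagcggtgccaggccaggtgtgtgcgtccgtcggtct
VLDLR, chr9:2621537-2621836, plus strand: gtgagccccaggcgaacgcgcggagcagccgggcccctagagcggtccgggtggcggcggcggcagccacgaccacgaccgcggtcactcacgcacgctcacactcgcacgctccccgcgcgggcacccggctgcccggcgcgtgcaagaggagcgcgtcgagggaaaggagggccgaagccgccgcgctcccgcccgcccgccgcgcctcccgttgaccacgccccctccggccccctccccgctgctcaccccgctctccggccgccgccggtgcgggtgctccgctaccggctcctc
SEL1L, chr14:81533804-81534103, minus strand: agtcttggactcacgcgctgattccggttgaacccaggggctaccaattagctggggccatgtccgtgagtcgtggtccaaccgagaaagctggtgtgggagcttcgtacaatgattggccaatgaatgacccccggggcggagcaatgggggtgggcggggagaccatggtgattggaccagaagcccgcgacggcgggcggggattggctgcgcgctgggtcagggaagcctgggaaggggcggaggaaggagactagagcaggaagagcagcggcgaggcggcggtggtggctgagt
In the HSPA5 window the element began 66 bases before the start site, and in CHAC1 the core lay on the opposite strand, 209 bases before the start. The windows of VLDLR and SEL1L held none of the 4 motifs.

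Knockdown of RFX7 was followed by higher levels of many of these genes, with and without Nutlin-3a. The groups hold no other knockdown condition and no rescue. Effects of lost RFX7 and other effects of the siRNA therefore cannot be told apart. A gene is called here where the authors' adjusted p was under 0.05 over all genes of the table. Under DMSO, 23 of the 41 genes (56.1%) were called higher with siRFX7, 3 (7.32%) lower, and 15 were not called. For comparison, 19.9% of all genes of that table were called higher and 17.5% lower, and among genes of base mean 100 or more, 27.1% were higher and 22.6% lower. Under Nutlin-3a, 25 (61.0%) were higher, 3 lower and 13 not called, against 17.2% higher and 15.4% lower over all genes, and 24.6% higher and 20.6% lower among genes of base mean 100 or more. The median log2 change over the 41 genes was 0.16 under DMSO and 0.18 under Nutlin-3a, with medians of 0.01 in both tables over genes of base mean 100 or more. With Holm adjustment in place of Benjamini-Hochberg, 13 members were called under DMSO and 17 under Nutlin-3a, all higher. With each DESeq2 statistic divided by its robust SD over all genes (2.49 and 2.23), 9 and 12 were called, again all higher. The shares of all genes called under these stricter settings were not analysed here, so these counts have no background.

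**Figure D1:**
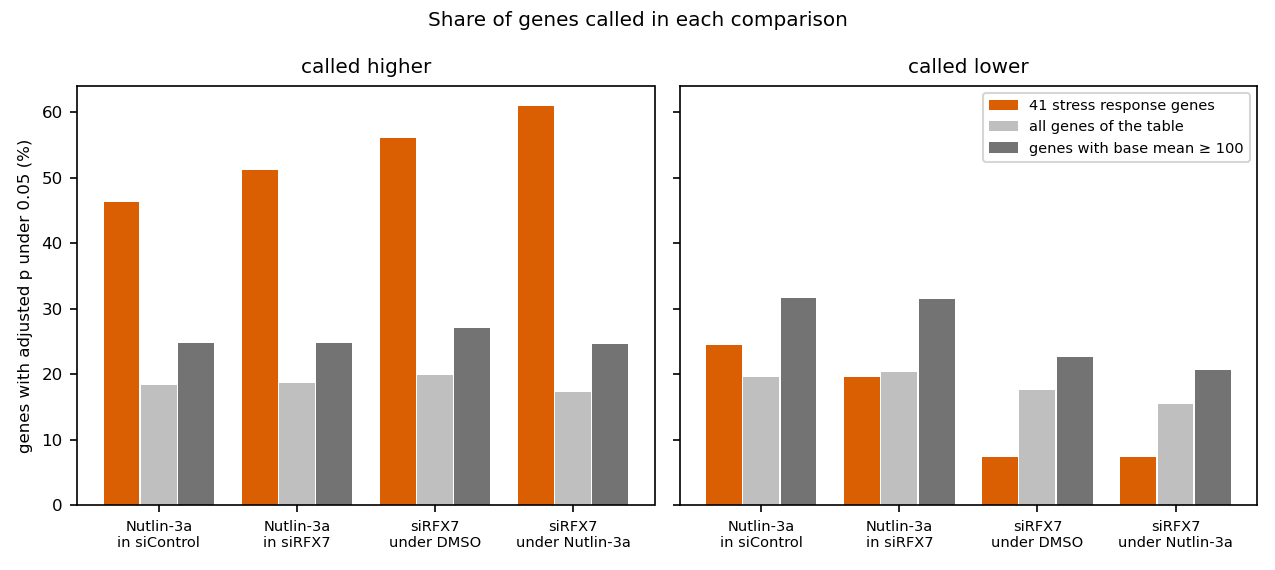
Share of genes (y axis, percent) called higher (left) or lower (right) at an adjusted p under 0.05 in each of the 4 comparisons (x axis), for the 41 stress response genes, all genes of the table and genes of base mean 100 or more. The bars of the 41 genes are above both backgrounds for higher calls in all 4 comparisons, most so for siRFX7 under Nutlin-3a (61.0%), and below the background of 22.6% and 20.6% for lower calls with siRFX7 (7.32%).

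The 2 knockdown tables share no library. In them 20 genes were higher under both treatments: ATF4, ATF6, TRIB3, CHAC1, PSAT1, SLC7A11, SLC7A5, SLC3A2, CEBPG, VLDLR, XBP1, HSPA5, DNAJC3, PDIA4, HERPUD1, EDEM1, SEL1L, EIF2AK4, WARS and GARS. DNAJB11 and SDF2L1 were lower under both, and 9 were called in neither (DDIT3, PHGDH, CEBPB, DNAJB9, CALR, CRELD2, ERN1, PPP1R15A and AARS). None was called in opposite directions. Across the 41 genes the correlation of the effects was 0.913 (Pearson), given as a description only, since genes are not independent and share a library preparation. How many of all genes had the same call under both treatments was not analysed here. Whether the shared calls and the correlation set the 41 genes apart from other genes is therefore not known.

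**Figure D2:**
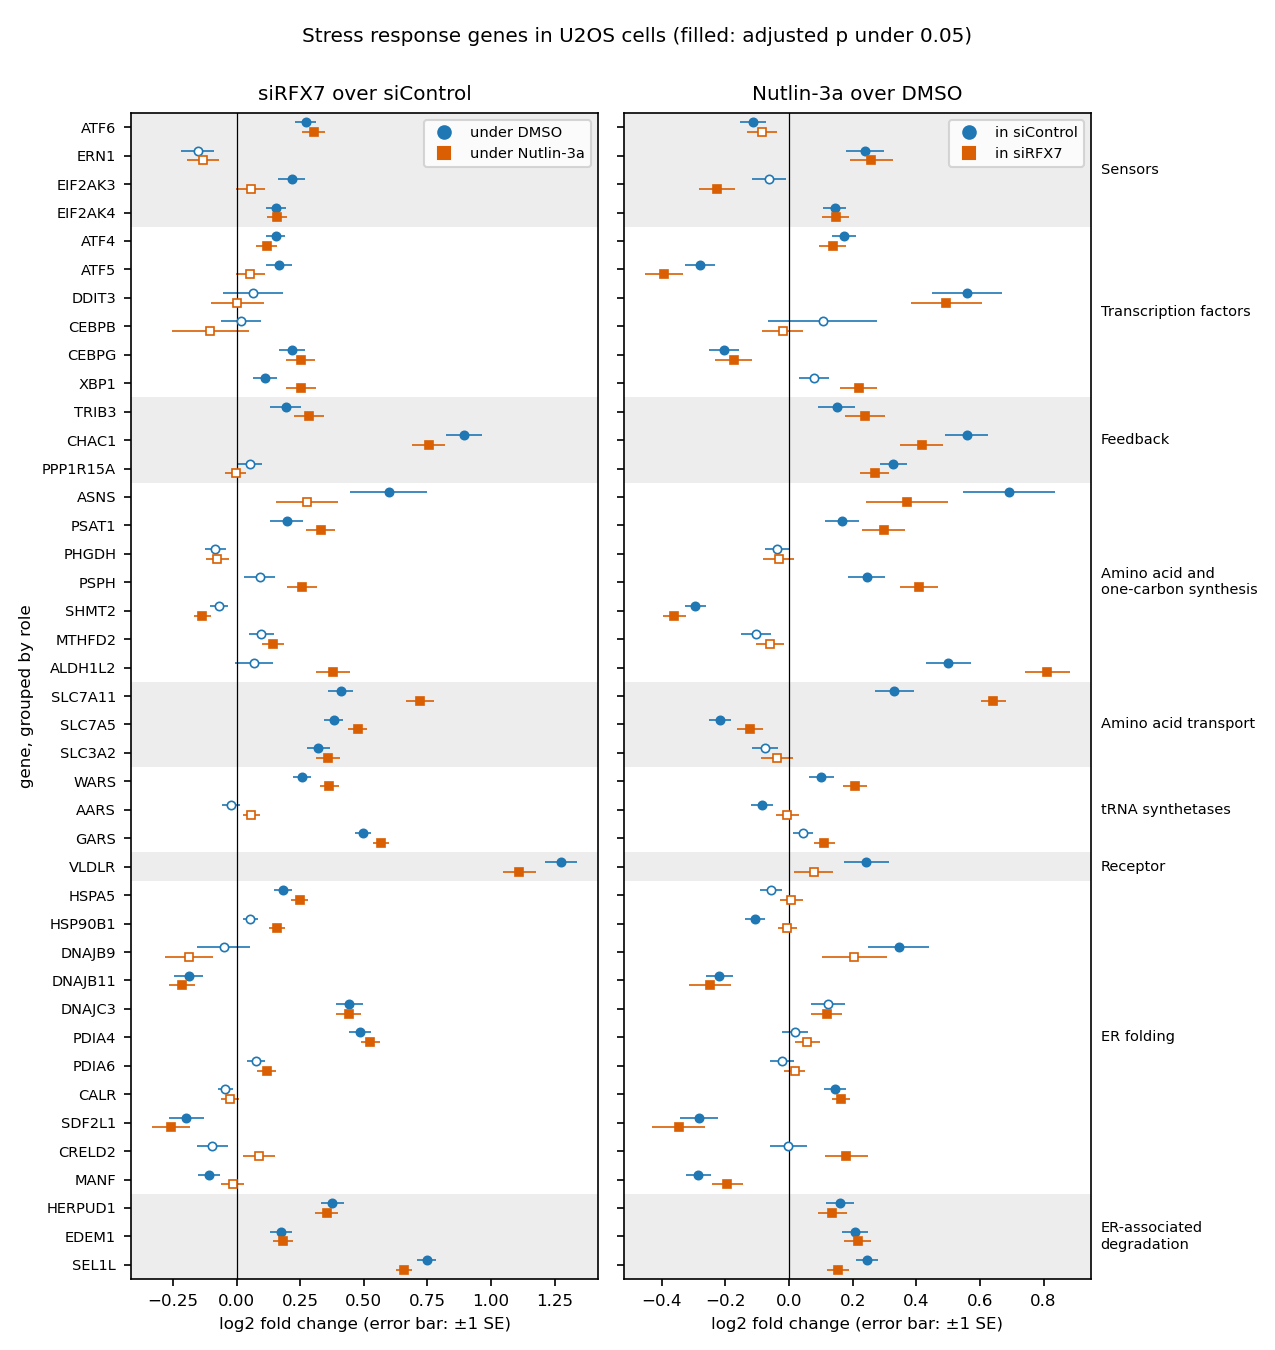
Log2 fold change of each of the 41 genes (y axis, grouped by role) for siRFX7 over siControl (left, under DMSO and under Nutlin-3a) and for Nutlin-3a over DMSO (right, in siControl and in siRFX7); bars are 1 SE to each side and filled symbols mark an adjusted p under 0.05. VLDLR lies farthest to the right on the left panel (1.28 and 1.11), followed by CHAC1 and SEL1L under DMSO and by CHAC1 and SLC7A11 under Nutlin-3a, while DNAJB11 and SDF2L1 lie left of 0 on both panels.

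VLDLR, the very low density lipoprotein receptor and a known target of ATF4, changed more than any other of the 41 genes. In GENCODE 29 on GRCh38, from which gene positions are given here, it is ENSG00000147852, chr9:2621834-2660053, plus strand. Its level was 485 normalised counts in siControl with DMSO and 573 with Nutlin-3a, against 1174 and 1239 in the siRFX7 groups. Both siRFX7 groups were thus above both siControl groups. The authors' deposited table for DMSO gave a log2 fold change of 1.28 ± 0.06 (SE; DESeq2 adjusted p 1.68e-88), a level 142% above siControl. For VLDLR under Nutlin-3a the value of the authors' deposited table was 1.11 ± 0.07 (SE; DESeq2 adjusted p 2.5e-62). It was the single gene of the 41 with a called change of at least 1 in size in any comparison.

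CHAC1, TRIB3 and PPP1R15A are late outputs of the pathway: CHAC1 degrades glutathione, TRIB3 is a pseudokinase that restrains ATF4, and PPP1R15A (GADD34) recruits the phosphatase of eIF2. CHAC1 (ENSG00000128965, chr15:40952962-40956519, plus strand) stood at 534 (DMSO) and 786 (Nutlin-3a) normalised counts in siControl and at 994 and 1327 in siRFX7. Its knockdown effect per the authors' deposited tables was 0.89 ± 0.07 (SE; DESeq2 adjusted p 1.4e-34) under DMSO and 0.75 ± 0.06 (SE; adjusted p 1.68e-30) under Nutlin-3a. CHAC1 in siRFX7 cells under DMSO was therefore above its level in siControl cells given Nutlin-3a. TRIB3 rose less, by 0.19 and 0.28 per the authors' deposited tables for DMSO and Nutlin-3a. PPP1R15A was not called in either; its levels of 2658 and 3202 normalised counts in siRFX7 were close to the 2562 and 3214 of siControl, and the 95% interval of the change under DMSO was -0.04 to 0.15.

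All 3 amino acid transporter genes rose with siRFX7 under both treatments. Of all genes of base mean 100 or more, 27.1% were called higher under DMSO and 24.6% under Nutlin-3a. SLC7A11 (xCT, which imports cystine) and SLC7A5 (LAT1, which imports large neutral amino acids) each pair with the heavy chain encoded by SLC3A2 (4F2hc). SLC7A11 (ENSG00000151012, chr4:138164097-138242349, minus strand) had levels of 2183 (DMSO) and 2746 (Nutlin-3a) normalised counts in siControl and 2897 and 4522 in siRFX7. Its change per the authors' deposited tables was 0.41 ± 0.05 (SE; DESeq2 adjusted p 8.87e-16) under DMSO and 0.72 ± 0.06 (SE; adjusted p 8.8e-37) under Nutlin-3a. SLC7A5 went from 24017 to 31276 normalised counts under DMSO and from 20647 to 28696 under Nutlin-3a, log2 changes of 0.38 and 0.48 per the authors' deposited tables. SLC3A2 rose by 0.32 and 0.36 per these authors' deposited tables. The median over these 3 genes was 0.38 under DMSO and 0.48 under Nutlin-3a.

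Among the 3 tRNA synthetases, GARS (glycyl) and WARS (tryptophanyl) rose and AARS (alanyl) was not called. The share called higher was thus 66.7% under each treatment. It was 27.1% (DMSO) and 24.6% (Nutlin-3a) over all genes of base mean 100 or more. GARS (ENSG00000106105, chr7:30594681-30634033, plus strand) had 10026 and 10336 normalised counts in the siControl groups with DMSO and Nutlin-3a, and 14166 and 15300 in the siRFX7 groups. The authors' deposited tables gave 0.50 ± 0.03 (SE; DESeq2 adjusted p 2.72e-54) under DMSO and 0.57 ± 0.03 (SE; adjusted p 6.48e-64) under Nutlin-3a. WARS rose by 0.26 and 0.36 per the authors' deposited tables. AARS had -0.02 and 0.06 per the authors' deposited tables (DESeq2 adjusted p 0.669 and 0.177).

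The 7 enzymes of serine, glycine, one-carbon and asparagine synthesis were less uniform. Under DMSO 2 (28.6%) were called higher, near the 27.1% of all genes of base mean 100 or more. Under Nutlin-3a 4 (57.1%) were higher and 1 (14.3%) lower, against 24.6% and 20.6% of such genes. PSAT1, the aminotransferase of serine synthesis, rose under both treatments (0.20 and 0.33 per the authors' deposited tables), while PHGDH, which catalyses the first step of the same pathway, was called in none of the 4 comparisons. PSPH, which releases serine in the last step, was higher under Nutlin-3a with 0.26 per the authors' deposited table, and had 0.09 under DMSO (DESeq2 adjusted p 0.245). ALDH1L2 (ENSG00000136010, chr12:105019784-105084577, minus strand) stood at 538 and 762 normalised counts in siControl with DMSO and Nutlin-3a and at 565 and 992 in siRFX7. Its knockdown effect per the authors' deposited tables was 0.07 ± 0.07 (SE; DESeq2 adjusted p 0.519) under DMSO and 0.38 ± 0.07 (SE; adjusted p 1.34e-07) under Nutlin-3a. MTHFD2, a mitochondrial folate enzyme, rose by 0.14 and SHMT2, the mitochondrial enzyme that makes glycine from serine, fell by 0.13 under Nutlin-3a per the authors' deposited table.

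ASNS (ENSG00000070669, chr7:97852118-97872542, minus strand) was the least expressed gene of the set. Its levels were 115 (DMSO) and 186 (Nutlin-3a) normalised counts in siControl and 174 and 226 in siRFX7. The authors' deposited tables gave a knockdown effect of 0.60 ± 0.15 (SE; DESeq2 adjusted p 0.000485) under DMSO and 0.28 ± 0.12 (SE; adjusted p 0.0622) under Nutlin-3a. In GENCODE 29, 44.6% of its exonic length is overlapped on the same strand by the transcript AC079781.5, so its reads could be split between these genes or dropped in counting, and its level is uncertain.

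The 3 genes of ER-associated degradation, which removes misfolded proteins from the ER, were higher with siRFX7 under both treatments. Over all genes of base mean 100 or more, 27.1% were higher under DMSO and 24.6% under Nutlin-3a. SEL1L, the adaptor that holds the HRD1 ubiquitin ligase complex together (ENSG00000071537, chr14:81471549-81533861, minus strand), had 6431 and 7617 normalised counts in siControl with DMSO and Nutlin-3a and 10795 and 12006 in siRFX7. The authors' deposited tables gave 0.75 ± 0.04 (SE; DESeq2 adjusted p 3.24e-90) under DMSO and 0.66 ± 0.03 (SE; adjusted p 2.17e-99) under Nutlin-3a. HERPUD1, a membrane protein of the same complex, rose by 0.38 and 0.35 per the authors' deposited tables. EDEM1, a lectin that takes glycoproteins towards degradation, rose by 0.17 and 0.18 per the authors' deposited tables.

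Among the 11 chaperones and folding factors of the ER lumen, 3 (27.3%) were called higher and 3 (27.3%) lower under DMSO, with a median log2 change of -0.04. These shares are near the 27.1% and 22.6% of all genes of base mean 100 or more. Under Nutlin-3a 5 (45.5%) were higher and 2 (18.2%) lower, with a median of 0.09, against 24.6% and 20.6% of such genes. PDIA4 (ERp72, a disulfide isomerase; ENSG00000155660, chr7:149003062-149028641, minus strand) had 4724 and 4784 normalised counts in the siControl groups and 6615 and 6884 in the siRFX7 groups. For PDIA4 the authors' deposited tables gave 0.49 ± 0.04 (SE; DESeq2 adjusted p 9.83e-28) under DMSO and 0.53 ± 0.04 (SE; adjusted p 8.12e-46) under Nutlin-3a. DNAJC3 (p58IPK, which restrains PERK and helps BiP) rose by 0.44 under either treatment per the authors' deposited tables. HSPA5 went from 27675 to 31415 normalised counts under DMSO and from 26595 to 31558 under Nutlin-3a. These HSPA5 changes were 0.18 ± 0.04 (SE; DESeq2 adjusted p 5.79e-06) and 0.25 ± 0.03 (SE; adjusted p 7.4e-12) per the authors' deposited tables. HSP90B1 and PDIA6 were called higher under Nutlin-3a alone, with 0.16 and 0.12 per the authors' deposited table, and had 0.05 and 0.08 under DMSO (adjusted p 0.129 and 0.0664).

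Of the folding factors, DNAJB11 and SDF2L1 were called lower with siRFX7 under both treatments and MANF under DMSO. DNAJB11 (ERdj3, a cochaperone) fell by 0.19 under DMSO and 0.21 under Nutlin-3a, and SDF2L1, which binds DNAJB11, fell by 0.20 and 0.26 per the authors' deposited tables. MANF, a secreted ER protein that binds BiP, fell by 0.11 under DMSO and had -0.02 under Nutlin-3a (DESeq2 adjusted p 0.84) per the authors' deposited tables. CALR, CRELD2 and DNAJB9 (ERdj4) were not called with siRFX7 under either treatment.

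Of the 4 sensors, ATF6 and EIF2AK4 were higher with siRFX7 under both treatments. ATF6 had 3495 and 3231 normalised counts in siControl with DMSO and Nutlin-3a and 4222 and 3983 in siRFX7, with effects of 0.27 ± 0.04 (SE; DESeq2 adjusted p 8.66e-10) and 0.30 ± 0.05 (SE; adjusted p 9.47e-10) per the authors' deposited tables. EIF2AK4 went from 5968 to 6651 normalised counts under DMSO and from 6591 to 7362 under Nutlin-3a, changes of 0.16 ± 0.04 (SE) per the authors' deposited tables. EIF2AK3 was higher under DMSO, at 1453 against 1249 normalised counts (0.22 ± 0.05, DESeq2 adjusted p 0.000217), and had 1242 against 1195 under Nutlin-3a (0.06 ± 0.06, adjusted p 0.511), by the authors' deposited tables. ERN1 was not called: it had 645 against 717 normalised counts under DMSO (-0.15, DESeq2 adjusted p 0.0501) and 771 against 846 under Nutlin-3a (-0.13, adjusted p 0.101) per the authors' deposited tables. ERN1 crossed the threshold under DMSO when only genes of base mean 100 or more were tested and when changes were centred on the median.

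Of the 6 transcription factors, ATF4, CEBPG and XBP1 were higher with siRFX7 under both treatments. ATF4 (ENSG00000128272, chr22:39519695-39522685, plus strand) had 10357 (DMSO) and 11674 (Nutlin-3a) normalised counts in siControl and 11516 and 12660 in siRFX7. The ATF4 changes were 0.15 ± 0.04 (SE; DESeq2 adjusted p 0.000161) and 0.12 ± 0.04 (SE; adjusted p 0.017) per the authors' deposited tables, among the smaller called effects of the list. XBP1 had 2619 and 2766 normalised counts in siControl and 2829 and 3292 in siRFX7, changes of 0.11 ± 0.05 (SE; DESeq2 adjusted p 0.0447) and 0.25 ± 0.06 (SE; adjusted p 0.000128) per the authors' deposited tables. CEBPG rose by 0.22 and 0.25 per the authors' deposited tables, and ATF5, a relative of ATF4, was called higher under DMSO alone, with 0.17. DDIT3, the proapoptotic factor CHOP (ENSG00000175197, chr12:57516588-57521737, minus strand), was not called with siRFX7: it had 205 and 301 normalised counts in siControl with DMSO and Nutlin-3a and 214 and 301 in siRFX7. The 95% interval of the DDIT3 effect, from the authors' deposited tables, was -0.16 to 0.30 under DMSO and -0.20 to 0.21 under Nutlin-3a.

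**Figure D3:**
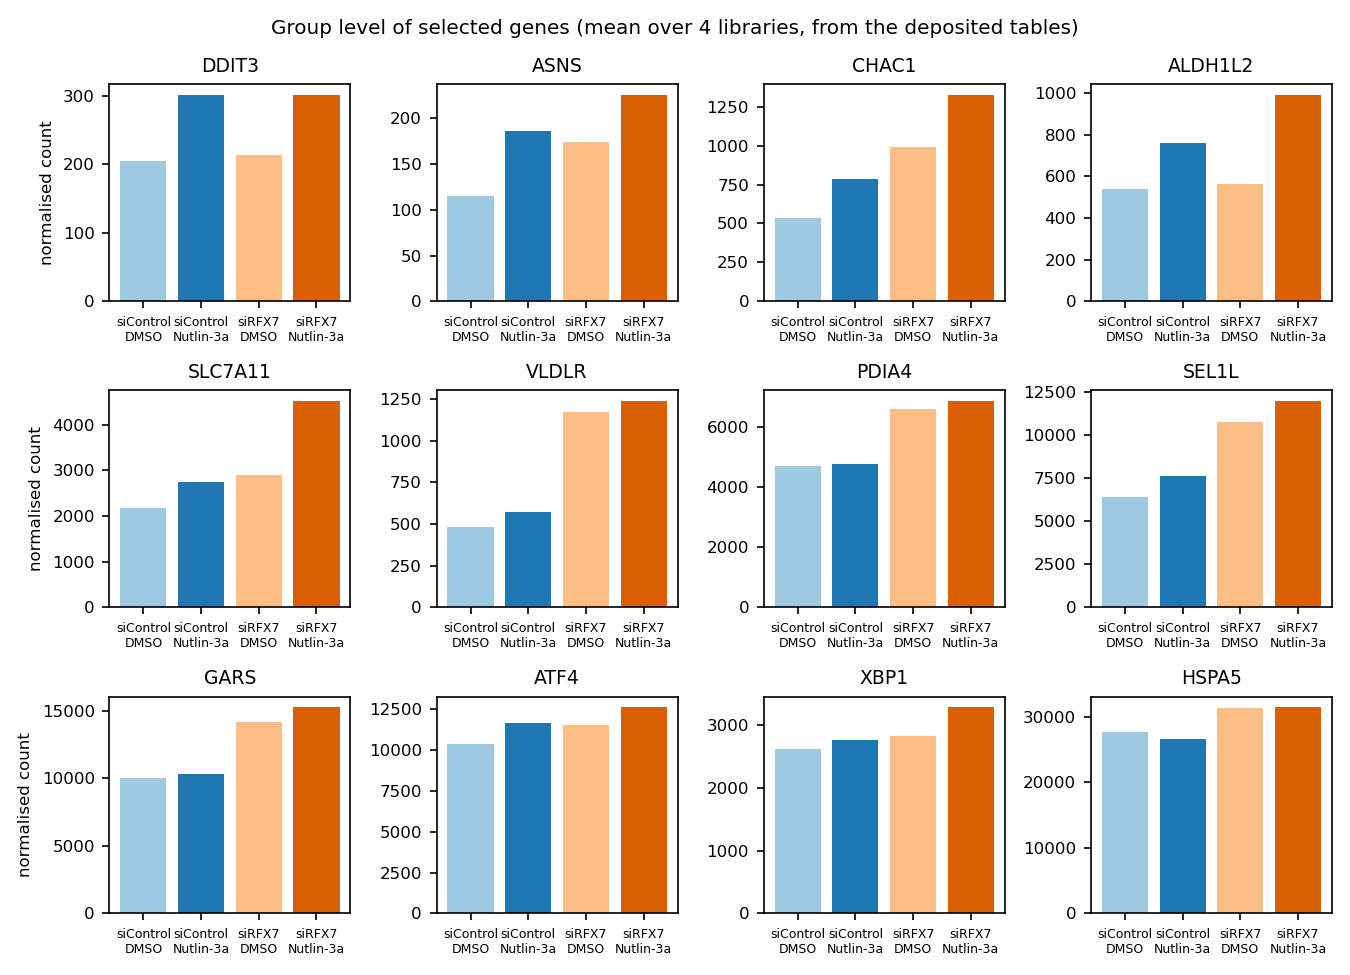
Mean normalised count over 4 libraries (y axis, starting at 0) of 12 selected genes in the 4 groups (x axis), derived from the deposited tables; the tables give no spread of single libraries. VLDLR, SEL1L, PDIA4 and GARS are high in both siRFX7 groups, DDIT3 is high in both Nutlin-3a groups (301), and SLC7A11 is highest where siRFX7 and Nutlin-3a were combined (4522).

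Nutlin-3a moved these genes in both directions, and by less than 1 on the log2 scale in every case. In siControl, 19 of the 41 genes (46.3%) were called higher, 10 (24.4%) lower and 12 were not called. Over all genes tested there, 18.3% were higher and 19.6% lower, and among genes of base mean 100 or more, 24.7% were higher and 31.6% lower. In siRFX7, 21 (51.2%) were higher, 8 (19.5%) lower and 12 not called, against 18.7% higher and 20.3% lower over all genes, and 24.8% higher and 31.5% lower among genes of base mean 100 or more. The median log2 change over the 41 genes was 0.10 in siControl and 0.12 in siRFX7, with -0.03 in each table over genes of base mean 100 or more. The Nutlin-3a table of siControl shares its DMSO libraries with the knockdown table for DMSO and its Nutlin-3a libraries with the knockdown table for Nutlin-3a, so their values are only set side by side. With Holm adjustment 15 members were called in siControl and 10 in siRFX7, and with the statistic divided by its robust SD (2.40 and 2.48) 6 and 3. Here, too, no share of all genes is given for these settings.

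These 2 Nutlin-3a tables share no library. In both, 17 genes were higher (ATF4, DDIT3, TRIB3, ASNS, CHAC1, PSAT1, PSPH, ALDH1L2, SLC7A11, CALR, HERPUD1, EDEM1, SEL1L, ERN1, EIF2AK4, PPP1R15A and WARS) and 7 were lower (ATF5, SHMT2, SLC7A5, CEBPG, DNAJB11, SDF2L1 and MANF). Another 7 were called in neither, among them HSPA5, PDIA4 and PDIA6, and none was called in opposite directions. The correlation across the 41 genes was 0.881 (Pearson), again only a description. Shared calls and correlation over all genes were not analysed here either, so whether these values are particular to the 41 genes is not known.

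The 3 late effectors rose with Nutlin-3a in both backgrounds. Among all genes of base mean 100 or more, 24.7% were called higher in siControl and 24.8% in siRFX7. CHAC1 rose by 0.56 ± 0.07 (SE; DESeq2 adjusted p 4.57e-15) in siControl and 0.42 ± 0.07 (SE; adjusted p 4.65e-09) in siRFX7 per the authors' deposited tables. PPP1R15A went from 2562 to 3214 normalised counts in siControl, 25.5% up, and from 2658 to 3202 in siRFX7. TRIB3 rose by 0.15 and 0.24 per the authors' deposited tables.

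Among the transcription factors, DDIT3 and ATF4 rose in both backgrounds and ATF5 and CEBPG fell in both. DDIT3 rose by 0.56 ± 0.11 (SE; DESeq2 adjusted p 2.56e-06) in siControl and 0.49 ± 0.11 (SE; adjusted p 4.43e-05) in siRFX7 per the authors' deposited tables, from 205 to 301 and from 214 to 301 normalised counts. The genes MARS and MBD6 overlap 31.6% of the exonic length of DDIT3 on the opposite strand, and whether counting used strand is not stated. The same limit holds for MTHFD2 (33.2% overlapped on the opposite strand), PDIA6 (25.2%) and ATF5 (21.2%), and less so for other members with smaller overlaps. ATF4 rose by 0.17 ± 0.04 (SE; DESeq2 adjusted p 1.26e-05) and 0.14 ± 0.04 (SE; adjusted p 0.00462) per the authors' deposited tables. ATF5 fell by 0.28 and 0.39, and CEBPG fell by 0.21 and 0.17, per the authors' deposited tables. XBP1 had 0.08 (DESeq2 adjusted p 0.21) in siControl and rose by 0.22 ± 0.06 (SE; adjusted p 0.000788) in siRFX7 per the authors' deposited tables.

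CEBPB was not called anywhere, and its error was uneven. The SE was 0.173 for Nutlin-3a in siControl and 0.152 for siRFX7 under Nutlin-3a per the authors' deposited tables, which is 3.10 and 2.59 times the median SE of 200 genes of like base mean. Both tables contain the siControl libraries given Nutlin-3a, and the other tables gave CEBPB an SE of 0.0642 and 0.0797. The cause of this spread was not tested.

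Among the enzymes, ASNS had the highest Nutlin-3a effect in siControl, 0.69 ± 0.14 (SE; DESeq2 adjusted p 8.4e-06), and 0.37 ± 0.13 (SE; adjusted p 0.0123) in siRFX7 per the authors' deposited tables. ALDH1L2 rose by 0.50 ± 0.07 (SE; DESeq2 adjusted p 9.23e-12) in siControl and 0.81 ± 0.07 (SE; adjusted p 1.45e-28) in siRFX7, per the authors' deposited tables. PSAT1 rose by 0.17 and 0.30 and PSPH by 0.24 and 0.41 per the authors' deposited tables. SHMT2 went the other way, from 8589 to 7002 normalised counts in siControl and from 8182 to 6374 in siRFX7. In this group, then, 4 of 7 genes (57.1%) were higher and 1 (14.3%) lower with Nutlin-3a in both backgrounds. Among all genes of base mean 100 or more, 24.7% were higher and 31.6% lower in siControl, and 24.8% and 31.5% in siRFX7.

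Transporters did not move together with Nutlin-3a. SLC7A11 rose by 0.33 ± 0.06 (SE; DESeq2 adjusted p 3.4e-07) in siControl and 0.64 ± 0.04 (SE; adjusted p 2.98e-55) in siRFX7 per the authors' deposited tables. SLC7A5 fell by 0.22 and 0.12 per the authors' deposited tables, and SLC3A2, the partner of both, had -0.08 and -0.04 there (DESeq2 adjusted p 0.148 and 0.597). SLC7A5 was thus lower with Nutlin-3a and higher with siRFX7, and in siRFX7 cells given Nutlin-3a (28696 normalised counts) it stood above siControl cells given DMSO (24017).

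In the ER, HERPUD1, EDEM1 and SEL1L were each called higher with Nutlin-3a in both backgrounds, by 0.14 to 0.24 per the authors' deposited tables. Of the 12 further genes of ER-associated degradation and trafficking, 5 (41.7%) were higher and 2 (16.7%) lower in siControl. In siRFX7 7 (58.3%) of these were higher and 2 (16.7%) lower. SEL1L rose by 0.24 ± 0.03 (SE; DESeq2 adjusted p 1.85e-11) in siControl and 0.15 ± 0.03 (SE; adjusted p 2.5e-05) in siRFX7 per the authors' deposited tables. Of the 11 folding factors 2 (18.2%) were higher and 4 (36.4%) lower in siControl, and 3 (27.3%) higher and 3 (27.3%) lower in siRFX7, shares near those of all genes of base mean 100 or more (24.7% and 31.6% in siControl, 24.8% and 31.5% in siRFX7). CALR went from 46684 to 51608 normalised counts in siControl and from 45283 to 50674 in siRFX7, and DNAJB9 rose by 0.34 (DESeq2 adjusted p 0.00138) in siControl with 0.20 (adjusted p 0.101) in siRFX7 per the authors' deposited tables. DNAJB11, SDF2L1 and MANF fell in both backgrounds, by 0.19 to 0.35 per the authors' deposited tables. HSPA5 had -0.06 (DESeq2 adjusted p 0.2) and 0.01 (adjusted p 0.917), per the authors' deposited tables, with a 95% interval of -0.13 to 0.01 in siControl.

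Among the sensors ERN1 and EIF2AK4 were called higher with Nutlin-3a in both backgrounds. ERN1 went from 717 to 846 normalised counts in siControl and from 645 to 771 in siRFX7, changes of 0.24 (DESeq2 adjusted p 0.000321) and 0.26 (adjusted p 0.000633) per the authors' deposited tables. EIF2AK4 rose by 10.5% and 10.7%. ATF6 fell by 0.11 in siControl (DESeq2 adjusted p 0.015) and had -0.08 in siRFX7 (adjusted p 0.159), and EIF2AK3 had -0.06 in siControl (adjusted p 0.403) and fell by 0.23 in siRFX7 (adjusted p 0.000263) per the authors' deposited tables. VLDLR rose by 0.24 ± 0.07 (SE; DESeq2 adjusted p 0.00191) in siControl and had 0.08 (adjusted p 0.351) in siRFX7 per the authors' deposited tables. GARS had 0.04 (DESeq2 adjusted p 0.283) in siControl and rose by 0.11 (adjusted p 0.00406) in siRFX7 per the authors' deposited tables, and PDIA4 was not called with Nutlin-3a.

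The difference of the Nutlin-3a responses was taken as the siRFX7 response minus the siControl response. It was given a two-sided normal p adjusted by Benjamini-Hochberg over 21339 genes. One member passed: SLC7A11, whose responses, computed from the authors' DESeq2 values, differed by 0.31 ± 0.07 (SE; p 1.94e-05; adjusted p 0.00398; 95% interval 0.17 to 0.45). The call was lost with Holm adjustment and with the sum of both SEs. Nutlin-3a raised it by 25.8% in siControl and by 56.1% in siRFX7. Over all genes, 0.173% had a larger response in siRFX7 at this threshold and 0.764% a smaller one. An adjusted p over 0.05 was found for the other 40 genes, of which 5 had an unadjusted p under 0.05.

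ALDH1L2 had a difference of the same size, 0.31 ± 0.10 (SE; 95% interval 0.12 to 0.51), with an unadjusted p of 0.00185 and an adjusted p of 0.135 from the DESeq2 values. For ASNS it was -0.32 ± 0.19 (95% interval -0.70 to 0.06), so a difference was not detectable with this error. CHAC1 had -0.14 (95% interval -0.33 to 0.05), VLDLR -0.17 (-0.35 to 0.02) and SEL1L -0.09 (-0.19 to 0.00). For DDIT3 the interval was -0.37 to 0.24 and for ATF4 -0.15 to 0.07. A difference was above 0 in 25 of the 41 genes, with a median of 0.02.

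**Figure D4:**
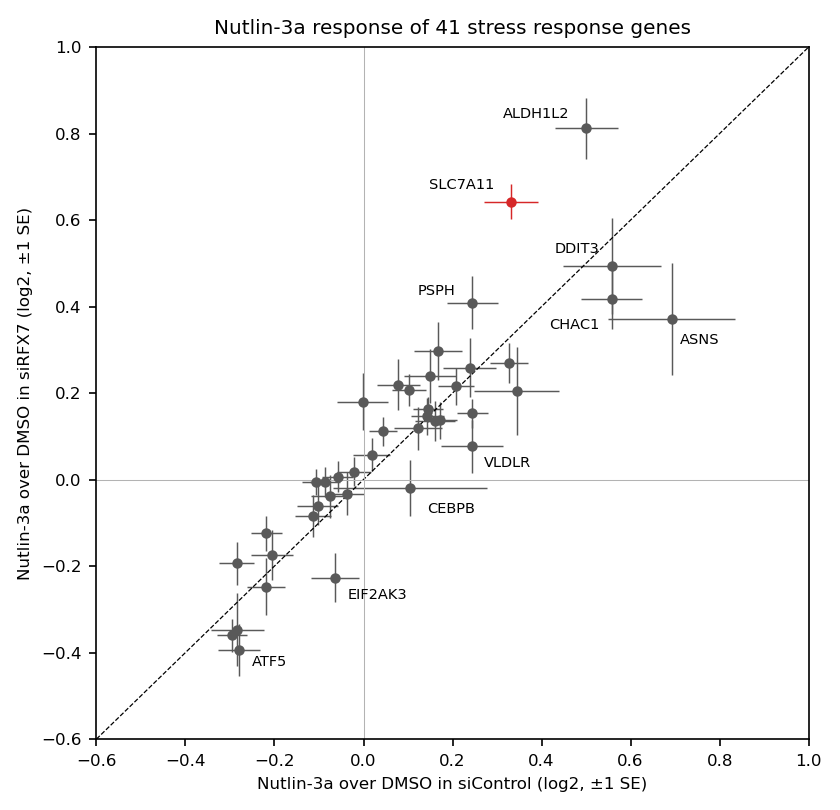
Nutlin-3a response of the 41 genes in siControl (x axis) and in siRFX7 (y axis), both as log2 fold changes with bars of 1 SE to each side; the dashed line marks equal responses, and red marks the gene whose difference passed an adjusted p of 0.05. SLC7A11 (0.33 and 0.64) and ALDH1L2 (0.50 and 0.81) lie above the line, and ASNS (0.69 and 0.37) lies below it with a wide error.

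Set beside the promoter elements shown above, 6 of the 7 genes with the C/EBP-ATF core (ASNS, CHAC1, SLC3A2, CEBPG, HERPUD1 and GARS) were called higher with siRFX7 under DMSO and 5 under Nutlin-3a, with medians of 0.38 and 0.35 and none lower; AARS was called in neither. With Nutlin-3a, 3 of these 7 were higher and 2 lower in siControl, and 4 higher and 1 lower in siRFX7. Of the 6 genes with the ER stress response element, XBP1 and HSPA5 were higher with siRFX7 under DMSO, and XBP1, HSPA5, HSP90B1 and PDIA6 under Nutlin-3a, with medians of 0.07 and 0.14. With Nutlin-3a, 1 of these 6 was higher and 1 lower in siControl, and 3 were higher and none lower in siRFX7. Over all genes of base mean 100 or more, 27.1% were higher with siRFX7 under DMSO, 24.6% with siRFX7 under Nutlin-3a, 24.7% with Nutlin-3a in siControl and 24.8% with Nutlin-3a in siRFX7. Several genes with large effects, such as VLDLR, SEL1L and PDIA4, held neither element. These are counts of a few genes and no test was made on them.

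Earlier results of these data tied 2 short words in 3′ untranslated regions to the knockdown tables, so the members that hold them are named. The heptamer GTATCTA was in 8.89% of 11289 genes, and the genes with it had a median log2 change of -0.14 with siRFX7 under DMSO against 0.03 in the others; of the 41 genes only HERPUD1 and ALDH1L2 held it. The hexamer GACGTA was in 5.50% of genes, with a median of 0.16 against 0.01; MTHFD2 alone held it here. HERPUD1 was called higher with siRFX7 under both treatments, and ALDH1L2 and MTHFD2 under Nutlin-3a alone. Without these 3 genes, 22 of 38 (57.9%) were called higher and 3 (7.89%) lower with siRFX7 under either treatment. Among genes of base mean 100 or more, 27.1% were higher under DMSO and 24.6% under Nutlin-3a. Leaving out 3 genes could hardly change the count, so a role of the words was not tested.

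A further list of 66 pathway genes, of which 65 were in the tables, gave the surroundings of the 41. With siRFX7 under DMSO, 22 (33.8%) were higher and 15 (23.1%) lower, against 27.1% and 22.6% of all genes of base mean 100 or more. With siRFX7 under Nutlin-3a, 27 (41.5%) were higher and 9 (13.8%) lower, against 24.6% and 20.6%. With Nutlin-3a in siControl, 16 (24.6%) were higher and 20 (30.8%) lower, close to the 24.7% and 31.6% of such genes. With Nutlin-3a in siRFX7, 24 (36.9%) were higher and 16 (24.6%) lower, against 24.8% and 31.5%. Of 10 further cytosolic tRNA synthetases, 8 were higher and 1 lower with siRFX7 under Nutlin-3a, and 5 higher and 1 lower under DMSO. The 22 further ATF4-linked genes had 9 higher and 2 lower under DMSO and 10 higher and 3 lower under Nutlin-3a. The 11 genes of eIF2, its exchange factor eIF2B, and related kinases and phosphatase subunits had no higher call with Nutlin-3a, with 8 lower in siControl and 6 lower in siRFX7. Of 10 further ER folding genes, 1 was higher and 5 were lower with siRFX7 under DMSO, while 1 was higher and 1 lower under Nutlin-3a.

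MBTPS1 and DERL1 had the highest knockdown effects of that list under both treatments. MBTPS1, the Golgi protease that cleaves ATF6, rose by 0.77 ± 0.04 (SE) under DMSO and 0.68 ± 0.04 under Nutlin-3a per the authors' deposited tables. DERL1, a channel component of ER-associated degradation, rose by 0.51 under DMSO per the authors' deposited table, and DDIT4 by 0.50. Under Nutlin-3a VEGFA, a secreted growth factor, came next per the authors' deposited table, with 0.40. The lowest were EIF2AK2 (the kinase PKR, -0.43), FKBP2 (-0.37) and EDEM2 (-0.29) under DMSO, and DDIT4 (-0.77), ATF3 (-0.48) and FKBP2 (-0.38) under Nutlin-3a, per the authors' deposited tables.

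With Nutlin-3a in siControl the highest of the list were GDF15 (3.83 ± 0.23 SE), DDIT4 (1.80 ± 0.07) and SESN2 (1.56 ± 0.05) per the authors' deposited table, which are known targets of p53 as well as of ATF4. In siRFX7 the highest genes that met the base mean minimum for naming were SESN2 (1.24), NUPR1 (1.13) and ATF3 (0.66) per the authors' deposited table. GDF15 fell below that minimum in siRFX7, with a base mean of 74.7. It rose there by 4.34 ± 0.30 (SE; DESeq2 adjusted p 2.38e-44), more than these genes. The lowest were EIF2S1, the alpha subunit of eIF2 (-0.33), EIF2AK2 (-0.30) and ERO1A (-0.26) in siControl, and EIF2S1 (-0.33), SLC7A1 (-0.26) and SELENOS (-0.23) in siRFX7, per the authors' deposited tables. SESN2 and DDIT4 were the members of this list whose responses differed, both smaller in siRFX7, by -0.32 and -1.28 on the log2 scale; no response of the list was larger in siRFX7 at an adjusted p under 0.05 of the difference computed from the DESeq2 values.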

How the data were processed

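RNA of 16 libraries in 4 groups was measured by poly(A) RNA sequencing with a stranded kit, per the labels' protocols. Per the submitters' processing notes, the tools were bcl2fastq 2.19.1.403, Trimmomatic 0.39, cutadapt 2.10, FastQC 0.11.9, SAMtools 1.10, Picard, featureCounts 1.6.5 and DESeq2 1.20.0, with build hg38. The aligner, the annotation and the strand setting of counting are not given in the sources used here. Per the file headers, the 4 deposited tables hold the authors' DESeq2 comparisons. The base mean is a signal, the authors' mean of normalised counts; the log2 fold change and its SE are the authors' log2 values; the Wald statistic is a deposited score used for checks and alternatives; the p-value and adjusted p-value (Benjamini-Hochberg over the genes of a table) are as the authors deposited them. The totals of single libraries were not analysed here, so the precision of a value is that of its SE.

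Which group stood over which was worked out from 19344 shared genes and from RFX7, CDKN1A and MDM2. Groups were taken from the sample titles. Computed here were the group levels, the difference of the Nutlin-3a responses (SE as the root of summed squares, two-sided normal p, tested on simulated data), counts of members, and promoter matches, with Python 3.11.15, pandas 2.3.3 and SciPy 1.17.1. Group levels follow from a table's base mean and fold change, and 1 factor put the siRFX7 groups on the scale of siControl. Genes were matched by identifier to GENCODE 29, and 41 of 41 members had the same symbol there. Full values are given for members called with a log2 change of at least 0.5 in any comparison or with a called difference, and for ATF4, DDIT3, XBP1, HSPA5, ATF6, ERN1, EIF2AK3 and EIF2AK4; of the further list, the 3 highest and 3 lowest called genes of base mean 100 or more are named per comparison. The members, the lists and the short words were chosen with earlier results of these data known. Alternatives were a stricter adjusted p, a minimum size, a minimum base mean, Holm adjustment, centring on the median, and a statistic divided by its robust SD.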

Additional observations from a re-analysis of the deposited data

Results flagged for a closer look

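SLC7A11, the cystine transporter gene, was the member whose Nutlin-3a response differed between siControl and siRFX7 by the test of the difference itself (0.31 ± 0.07 SE on the log2 scale, computed from the authors' DESeq2 tables; adjusted p 0.00398). It was called neither with Holm adjustment nor with the sum of both SEs in place of the root of their summed squares.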

How the results depend on the processing

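No called effect of a member reversed in sign under an alternative. Centring on the median turned the sign of 6 effects that were not called: for Nutlin-3a in siControl PDIA6 came to 0.00593 and CRELD2 to 0.0256, for Nutlin-3a in siRFX7 CEBPB to 0.00606, HSP90B1 to 0.0205 and AARS to 0.0199, and for siRFX7 under Nutlin-3a DDIT3 to -0.00801. Of the counts of called members, those for a stricter adjusted p of 0.01, for a base mean of at least 100 and for centring on the median stayed within 1.5 times the reported counts of 29 (Nutlin-3a in siControl), 29 (Nutlin-3a in siRFX7), 26 (siRFX7 under DMSO) and 28 (siRFX7 under Nutlin-3a). With a log2 change of at least 0.25 the counts, in this order, were 11, 12, 13 and 19. With Holm adjustment they were 15, 10, 13 and 17 in the same order, and 0 for the difference of the responses. With each statistic divided by its robust SD over all genes (2.40, 2.48, 2.49 and 2.23) they were 6, 3, 9 and 12. Shares of all genes called with the minimum size, Holm adjustment or the robust SD were not analysed here. With the sum of both SEs, too, 0 members had a called difference; 2 had an unadjusted p under 0.05 then, against 6 with the root of summed squares used for the reported value and for Holm adjustment. Dividing the statistic of the difference by its robust SD, and leaving out the 3 members with a short word in a 3′ untranslated region (25 called under each treatment), were added after seeing the data. With the robust SD, CHAC1, SLC7A11, SLC7A5, VLDLR, DNAJC3, PDIA4, HERPUD1, SEL1L and GARS were called with siRFX7 under both treatments, all higher. Over all members, comparisons and alternatives, 468 values kept a call, 212 lost it, 6 gained one and 626 were not called in either case. No paired analysis was possible because the tables hold no values of single libraries, and leaving out each replicate was not run for the same reason. Protein, splicing and phosphorylation were not measured.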
